A study of Mus musculus with 12 samples.

Results

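The comparison of bone marrow from Tet2+/- Dnmt3a+/- Flt3ITD/WT (TFD) mice with bone marrow from Tet2+/- Flt3ITD/WT (TF) mice asks what a heterozygous Dnmt3a deletion adds on a shared Tet2 and Flt3 background. It rests on the 2 TFD and 3 TF libraries with read counts, 5 of the 11 libraries with counts and of the 12 labelled samples, which were chosen by their genotype labels. The third TFD sample was not analysed here. RNA came from mononuclear cells of whole BM of C57BL/6 mice, globin transcripts were removed, and stranded libraries were made from total RNA, so that messages without a poly(A) tail were kept. The other libraries were 3 wild type (WT) and 3 Dnmt3a+/- Flt3ITD/WT (DF), and they entered the fit for their share of the spread.

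TF mice carried 1 deleted Tet2 allele and 1 Flt3 allele with an internal tandem duplication (ITD), both in the germline. TFD mice carried the same alleles and also a floxed Dnmt3a allele with MxCre, a Cre recombinase driven by the interferon-inducible Mx1 promoter and switched on by poly(I:C), a double-stranded RNA mimic. All animals, WT included, were given poly(I:C) as young adults. The TF label lists no Cre, so the Dnmt3a allele and the Cre transgene cannot be told apart here. MxCre recombines in blood cells and in other cells that respond to interferon, and the share of cells that lost the allele was not measured in these files. Nothing in the labels says that each library came from a separate mouse, so p-values measure the spread between these libraries.

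DNMT3A places methyl groups on unmethylated cytosines, and TET2 oxidises methylcytosine on the way to its removal. Both genes are mutated early in acute myeloid leukaemia (AML), often together with FLT3-ITD, which keeps the FLT3 receptor kinase signalling through STAT5, RAS and PI3K without its ligand. Loss of either epigenetic enzyme is known for enlarging the pool of stem and progenitor cells in BM. Interferon-stimulated genes, histones and ribosomal proteins each form a gene group with shared control: the first through interferon receptors, the second through DNA replication, and the third through growth signals.

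The 5 libraries held 10812015 to 15496378 counts, and 12175 genes were tested. TF3 and TFD2 carried 30976 and 42152 Xist reads against 18 to 20 in TF1, TF2 and TFD1, so females made up 1 of 3 TF and 1 of 2 TFD libraries. TF3 stood apart from the other TF libraries. On the root mean square of the 500 largest log2 differences, TF1 and TF2 lay 1.38 apart, TF3 lay 2.38 and 2.39 from them, and the TFD libraries lay 2.18 from each other. Results are therefore also given without the library they lean on, and as the differences TFD1 minus the mean of TF1 and TF2 (male) and TFD2 minus TF3 (female), which have no test. For a single gene, an exact rank-sum test of 2 against 3 libraries cannot go below p = 0.2 (two-sided), so p-values come from the fit across all genes.

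Dnmt3a itself, counted over the whole gene, was at 782, 705 and 945 reads in TF1, TF2 and TF3 and at 870 and 657 in TFD1 and TFD2. The TFD and TF ranges overlapped, and the log2 fold change was -0.29 ± 0.23 (SE, edgeR quasi-likelihood, adjusted p = 0.77). A whole-gene count cannot show the loss of the floxed exons from 1 allele, and it was 5.37 on the log2 CPM scale (CPM, reads scaled to library size) in DF and 5.49 in WT. Tet2 was at 7.47 ± 0.33 log2 CPM in TF (SD, n = 3) and 7.53 ± 0.26 in TFD (SD, n = 2), a log2 fold change of 0.05 ± 0.17 (SE, edgeR adjusted p = 0.96). Flt3 was at 809, 677 and 782 reads in TF and at 941 and 1463 in TFD, where only TFD2 stood above TF after scaling, and its log2 fold change of 0.56 ± 0.29 (SE, edgeR adjusted p = 0.63) became -0.11 without TFD2.

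Of the 12175 genes, 2 passed an adjusted p of 0.05 in the edgeR quasi-likelihood test, 0.0164% of those tested: Skint3, which rose, and Hist3h2bb-ps, which fell (0.00821% of genes in each direction). DESeq2 on the same counts called 131 genes (1.08%), 22 higher (0.181%) and 109 lower (0.895%) in TFD. At an unadjusted p of 0.05, the edgeR fit held 374 genes higher (3.07%) and 694 genes lower (5.7%). The libraries of the groups did not overlap for 1254 genes with TFD higher (10.3%) and for 1461 genes with TFD lower (12%). With the TF and TFD libraries fitted alone, no gene was called by edgeR, 728 genes had an unadjusted p under 0.05, and both genes had an adjusted p of 0.0591; DESeq2 on those libraries called 10 higher and 64 lower.

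Skint3 belongs to the Skint family of transmembrane immunoglobulin-like proteins, whose founding member selects skin gamma-delta T cells in the thymus. It was counted at 0 reads in each of the 3 TF libraries and at 273 and 295 reads in TFD. WT held 43, 50 and 97 reads and DF held 145, 234 and 95, so TF was the genotype without reads. Set against a floor of 3 counts per TF library, Skint3 was at least 85.4-fold higher in TFD on the CPM scale (edgeR adjusted p = 0.000294; between 0.000226 and 0.0011 as each of the 5 libraries was left out). Skint3 lies on chromosome 4 (mm10, chr4:112232245-112300468). Among 125 other tested genes that start within 10 Mb of it, 14 had an unadjusted p under 0.05 (11.2%, against 8.77% over all genes), and 2 had a log2 fold change beyond 2 in size, Elavl4 and Ptprf, where 50 of all 12175 genes did.

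Elavl4, a neuronal RNA-binding protein named here after its values were seen, starts 2.03 Mb before Skint3 and had the opposite pattern. It held 36, 51 and 103 reads in TF, 1 and 0 in TFD, 0 in every WT library, and 13, 1 and 13 in DF. The summed count was 145-fold higher in TF than in TFD (exact 95% interval 25.8 to 5772, counting error only), with an adjusted p of 0.16 by edgeR and 0.00274 by DESeq2. Ptprf, a receptor tyrosine phosphatase 5.98 Mb after Skint3, was at 142, 123 and 274 reads in TF and at 27 and 53 in TFD, a log2 fold change of -2.31 ± 0.49 (SE, edgeR adjusted p = 0.19, DESeq2 adjusted p = 0.00116).

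**Figure D1:**
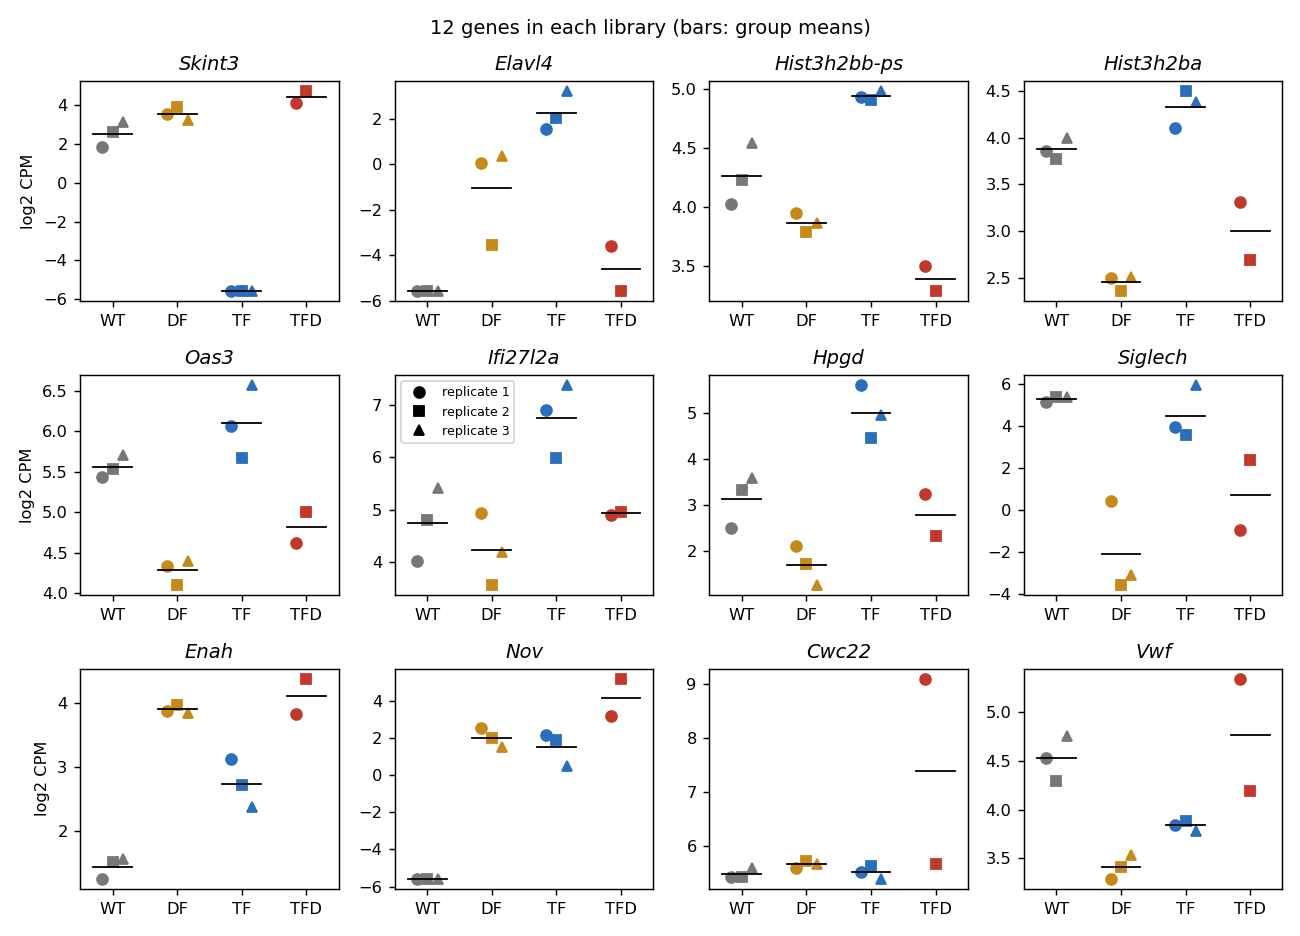
Level of 12 genes in each library on the log2 CPM scale (y axis, prior count 0.25, so a library with 0 reads sits at -5.59) for WT, DF, TF and TFD (x axis), with circles, squares and triangles for replicates 1, 2 and 3 and bars for group means. Skint3 is at -5.59 in all 3 TF libraries and at 4.10 and 4.72 in TFD, while the Cwc22 difference rests on TFD1 alone.

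Hist3h2bb-ps is an H2B gene annotated as a pseudogene in the small Hist3 cluster on chromosome 11 (chr11:58954048-58954512). It was at 379, 367 and 347 reads in TF and at 180 and 109 in TFD, with 4.94 ± 0.04 log2 CPM in TF (SD, n = 3) and 3.39 ± 0.15 in TFD (SD, n = 2). Both TFD libraries were below every TF library, and the log2 fold change was -1.55 ± 0.16 (SE, edgeR adjusted p = 0.00248). The log2 difference was -1.43 in the male libraries and -1.70 in the female pair. H2B copies are near-identical, and the authors counted uniquely mapped reads, so reads shared with other copies could have been lost or split.

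Both neighbours in the cluster were lower too. Hist3h2ba, an H2B gene, was at 213, 277 and 228 reads in TF and 158 and 72 in TFD (log2 fold change -1.30 ± 0.20, SE, edgeR adjusted p = 0.0728, DESeq2 adjusted p = 2.55e-05). Hist3h2a, an H2A gene, was at 2822, 3100 and 2529 reads in TF and 1835 and 1413 in TFD (log2 fold change -0.98 ± 0.16, SE, edgeR adjusted p = 0.0728, DESeq2 adjusted p = 1.57e-05). In neither gene did the groups overlap. The DF, TFD, TF and WT means were 2.45, 2.997, 4.33 and 3.88 log2 CPM for Hist3h2ba, 7.07, 6.91, 7.89 and 7.44 for Hist3h2a, and 3.87, 3.39, 4.94 and 4.26 for Hist3h2bb-ps, so TFD was lowest for the last 2 and DF for the first.

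Replication-dependent histone genes, made in S phase from intron-poor units and ended by a stem-loop in place of a poly(A) tail, were lower as a group. Of 56 tested, 54 had a negative log2 fold change (49.9% of all genes did) and 38 had an unadjusted p under 0.05 on the lower side, 67.9% against 5.7% of all genes; none was on the higher side. DESeq2 called 15 lower (26.8% against 0.895%) and 0 higher. In 31 both TFD libraries were below every TF library (55.4% against 12%), in 1 they were above (1.79% against 10.3%). The median log2 fold change was -0.55, beside 0.00 for all genes. Every family held lower members: the medians were -0.77 over 13 H2A genes, -0.64 over 15 H2B genes, -0.66 over 10 H3 genes, -0.40 over 12 H4 genes and -0.24 over 6 H1 linker genes. The large Hist1 cluster on chromosome 13 had a median of -0.60 over 47 genes, and the Hist2 cluster on chromosome 3 had -0.48 over 6.

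TFD2 held the lowest histone level of all 11 libraries. The mean of the list was 7.58, 7.84 and 7.51 log2 CPM in TF1, TF2 and TF3, 7.40 in TFD1 and 6.63 in TFD2, with WT between 7.16 and 7.24 and DF between 7.38 and 7.58. Without TFD1 the median log2 fold change was -1.01 and 49 members had an unadjusted p under 0.05 (background 7.89%); without TFD2 it was -0.25 and 10 members did (background 3.26%). Hist1h2af, an H2A gene, was at 3466, 3861 and 2745 reads in TF, 2996 in TFD1 and 1201 in TFD2, a log2 fold change of -0.94 ± 0.19 (SE, edgeR adjusted p = 0.19). Genes of the S phase and mitosis list had a median of -0.05 over 32 genes, with 3 lower (9.38% against 5.7% of all genes) and 0 higher at an unadjusted p of 0.05, and 6 did not overlap with TFD lower (18.8% against 12%). Pcna, the sliding clamp of replication forks, was among those 3, at 8.36 ± 0.06 log2 CPM in TF (SD, n = 3) and 7.89 ± 0.04 in TFD (SD, n = 2), a log2 fold change of -0.47 ± 0.11 (SE, edgeR adjusted p = 0.22, DESeq2 adjusted p = 0.00723).

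The promoters of the Hist3 pair and of Hist1h2af are shown because these genes had the smallest p-values in the histone list, which does not hold the pseudogene Hist3h2bb-ps. Each line gives the 120 bases before the RefSeq start site (GRCm38.p6, 5′ to 3′ along the gene), with CCAAT or TATAAA on either strand in capitals. They lie at chr11:58948791-58948910, chr11:58954565-58954684 and chr13:23533755-23533874, all on the plus strand.
Hist3h2ba: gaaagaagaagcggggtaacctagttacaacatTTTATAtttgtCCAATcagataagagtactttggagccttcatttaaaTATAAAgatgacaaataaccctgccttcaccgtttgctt
Hist3h2a: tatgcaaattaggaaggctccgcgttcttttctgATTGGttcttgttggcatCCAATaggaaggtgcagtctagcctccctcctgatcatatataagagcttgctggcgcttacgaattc
Hist1h2af: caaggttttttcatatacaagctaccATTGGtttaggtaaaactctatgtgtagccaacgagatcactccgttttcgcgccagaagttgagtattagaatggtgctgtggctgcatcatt
CCAAT occurred within 250 bases before the start in 43 of 51 histone genes with a promoter in the table (84.3%) and in 41% of 9711 tested genes; TATAAA occurred in 26 of 51 (51%) against 7.81%. Histone genes with CCAAT had a median log2 fold change of -0.64 and those without it -0.40. For TATAAA the order was the other way, with -0.52 for genes that held it and -0.63 for those without it.

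Ribosomal protein genes were lower in TFD as a group. Of 83 tested, 81 had a negative log2 fold change, 74 had both TFD libraries below every TF library (89.2%, against 12% of all genes), 58 had an unadjusted p under 0.05 on the lower side (69.9% against 5.7%), and DESeq2 called 32 lower and 0 higher (0.895% of all genes were called lower). The median was -0.45, or -0.46 over 48 large-subunit genes and -0.43 over 33 small-subunit genes, with the other 2 members in neither. The 2 members above 0 were Rps4l, at 8, 11 and 13 reads in TF and 43 and 9 in TFD (log2 fold change 0.99 ± 0.67, SE, edgeR adjusted p = 0.73), and Rps16 (0.28), and the lowest was at -0.75. The list mean was 8.60, 8.60 and 8.51 log2 CPM in TF1, TF2 and TF3, 8.29 in TFD1 and 8.01 in TFD2. The WT libraries were at 7.98, 7.97 and 8.18, below all 3 TF libraries; TFD1 was above WT and TFD2 within its range, and DF libraries were at 8.52, 8.41 and 8.24. Rpl38, a large-subunit protein, was at 4027, 3753 and 3435 reads in TF and 3585 and 1969 in TFD, and after scaling both TFD libraries were lower (log2 fold change -0.66 ± 0.14, SE, edgeR adjusted p = 0.19, DESeq2 adjusted p = 0.00351). Without TFD2 the median was -0.31 and 26 members had an unadjusted p under 0.05, against 3.26% of all genes. Genes that build ribosomes, such as processing factors and RNA polymerase I subunits, did not share the pattern, with a median of 0.02 over 26 genes. They are longer, with a median length of 2549.5 bases against 703 for ribosomal protein genes. With the length correction described below, the medians were 0.03 and -0.19. Ncl, nucleolin, was higher in both TFD libraries (log2 fold change 0.47 ± 0.18, SE, edgeR adjusted p = 0.49).

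Ribosomal protein messages often begin within a run of pyrimidines, through which growth signals control their translation. The start sites of Rpl38 and Rps15a are printed because they had the smallest p-values among ribosomal protein genes with such a run in the table. Each line gives 15 bases on either side of the RefSeq start (GRCm38.p6), with the run of at least 7 C or T in capitals, at chr11:114668565-114668594 (plus strand) and chr7:118116133-118116162 (minus strand).
Rpl38: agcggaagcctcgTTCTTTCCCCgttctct
Rps15a: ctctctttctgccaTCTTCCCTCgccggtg
A run of at least 7 C or T that touches the start, or begins within 4 bases after it, was found in 26 of 61 ribosomal protein genes with a promoter (42.6%) and in 13.3% of all 9711. Members with the run had a median log2 fold change of -0.39 and those without it -0.46.

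Nuclear-encoded subunits of oxidative phosphorylation (OXPHOS), the respiratory chain and ATP synthase of mitochondria, were also lower. Of 77 tested, 71 had a negative log2 fold change, 29 had an unadjusted p under 0.05 on the lower side (37.7% against 5.7% of all genes) and 0 on the higher, 47 did not overlap with TFD lower (61% against 12%), and DESeq2 called 4 lower (5.19% against 0.895%). The median was -0.27: -0.31 over 35 complex I genes, -0.15 over 4 complex II genes, -0.28 over 9 complex III genes, -0.36 over 11 complex IV genes and -0.17 over 17 ATP synthase genes, with Cycs, cytochrome c, in none of them. Ndufa6, a complex I subunit, was at 962, 875 and 846 reads in TF and 849 and 516 in TFD (log2 fold change -0.61 ± 0.12, SE, edgeR adjusted p = 0.16, DESeq2 adjusted p = 0.00214). Cox7a2, a complex IV subunit, was at 1257, 1284 and 1196 reads in TF and 1245 and 660 in TFD (log2 fold change -0.62 ± 0.14, SE, edgeR adjusted p = 0.19, DESeq2 adjusted p = 0.00795). Without TFD2 the median was -0.14 and 8 members had an unadjusted p under 0.05 (background 3.26%). With the length offset, a loess correction of each library for the trend of its values with exon length, the median was -0.06, and 5 members were lower and 5 higher at an unadjusted p of 0.05 (4.07% and 3.64% of all genes). WT libraries were at 5.68, 5.63 and 5.82 on the list mean, DF at 6.07, 6.03 and 5.83, TF at 5.96, 5.99 and 5.98, and TFD at 5.82 and 5.57 log2 CPM.

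**Figure D2:**
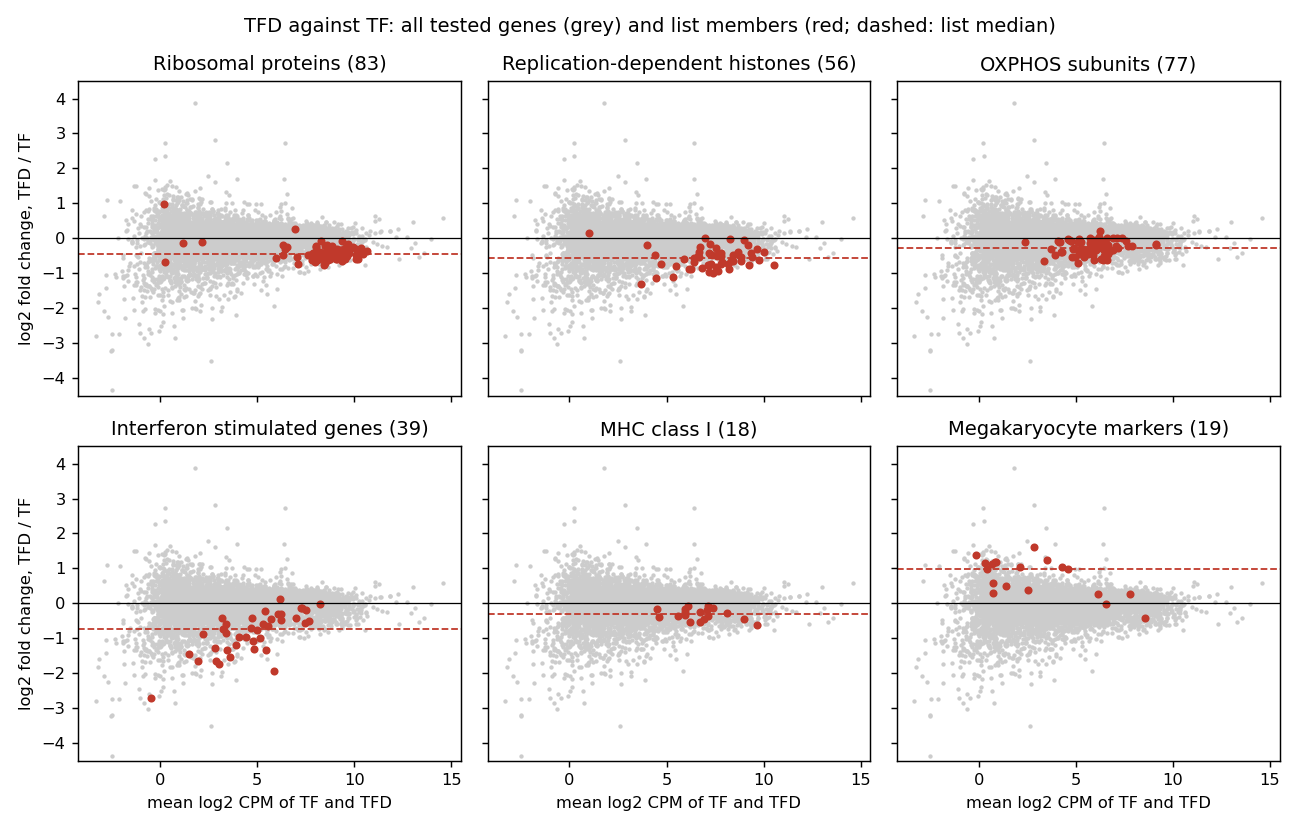
Log2 fold change of TFD over TF (y axis) against mean log2 CPM of the groups (x axis) for all tested genes (grey) and for the members of 6 lists (red), with the list median as a dashed line; genes beyond 4.5 on the y axis (Skint3 and Elavl4) lie outside the panels. Ribosomal protein, histone and OXPHOS genes sit at high levels and below 0, with medians of -0.45, -0.55 and -0.27, and interferon-stimulated genes sit at -0.72.

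Gene length moved with these differences. Over all tested genes, the median log2 fold change was -0.26 for 249 genes with summed exons of up to 500 bases, -0.22 for 742 genes of 500 to 1000 bases, -0.07 for 2623 genes of 1000 to 2000 bases, 0.01 for 4831 genes of 2000 to 4000 bases, 0.06 for 3167 genes of 4000 to 8000 bases and 0.09 for 563 longer genes. Without the ribosomal protein, histone and OXPHOS lists, the medians were -0.10 up to 500 bases, -0.19 from 500 to 1000 bases and -0.06 from 1000 to 2000 bases, so the shortest class was not the lowest. With all genes, the order held in the male libraries (-0.16 up to 500 bases, 0.03 above 8000) and more steeply in the female pair (-0.36 and 0.14). Ribosomal protein, histone and OXPHOS genes are short, with median lengths of 703, 485 and 754 bases. Among the 824 other genes of up to 1000 bases, the median was -0.17 and 116 had an unadjusted p under 0.05 on the lower side (14.1%), against medians of -0.45, -0.55 and -0.30 for the members of the lists up to that length. With a smooth length term removed from each library, the median fell in size to -0.19 for ribosomal proteins (32 of 83 lower and 1 higher at an unadjusted p of 0.05, against 4.07% and 3.64% of all genes), to -0.22 for histones (20 of 56 lower, 1 higher) and to -0.06 for OXPHOS genes (5 lower, 5 higher). Hist3h2bb-ps kept its call under that setting (log2 fold change -1.19; edgeR adjusted p = 0.00927).

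**Figure D3:**
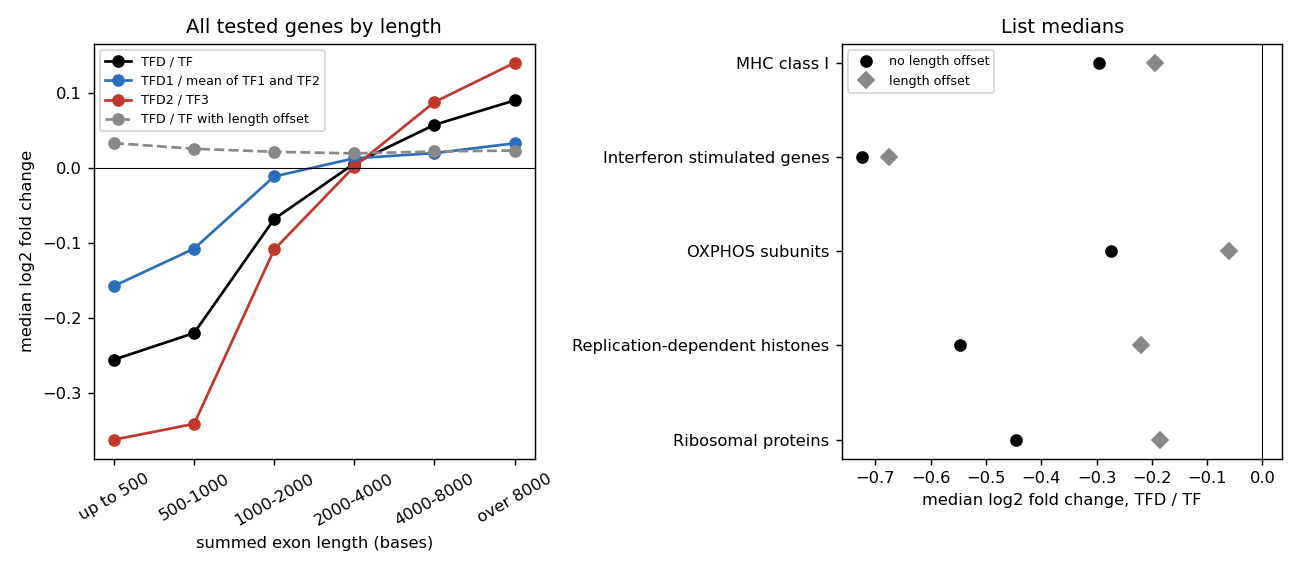
Left, median log2 fold change (y axis) of all tested genes in 6 classes of summed exon length (x axis, bases) for the whole comparison, the male libraries, the female pair and the fit with a length offset. Right, the medians of 5 lists (x axis, log2 fold change) without and with that offset: OXPHOS genes move from -0.27 to -0.06, interferon-stimulated genes from -0.72 to -0.67.

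Genes stimulated by type I interferon were lower in TFD. Of 39 tested, 38 had a negative log2 fold change, 24 had an unadjusted p under 0.05 on the lower side (61.5% against 5.7% of all genes) and 0 on the higher, 21 did not overlap with TFD lower (53.8% against 12%), and DESeq2 called 9 lower (23.1% against 0.895%). No member was called by the edgeR test (smallest edgeR adjusted p = 0.0728). The median was -0.72, and -0.67 with the length offset. The list mean was 5.20, 4.60 and 5.68 log2 CPM in TF1, TF2 and TF3 and 4.20 and 4.59 in TFD1 and TFD2, so TF2 was just above TFD2 and TF3 was the highest library. WT libraries lay at 4.23, 4.51 and 4.76, and DF libraries lay lowest, at 3.74, 3.42 and 3.54. Without TF3 the median was -0.45 and 14 members had an unadjusted p under 0.05 (background 4.34%); without TFD1 14 did (7.89%) and without TFD2 23 did (3.26%). The difference had the same sign in the male libraries (median -0.57) and in the female pair (median -1.07).

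Oas3, an antiviral oligoadenylate synthetase, was at 832, 624 and 1045 reads in TF and at 393 and 360 in TFD. The groups did not overlap, and the log2 fold change was -1.33 ± 0.22 (SE, edgeR adjusted p = 0.0728, DESeq2 adjusted p = 2.12e-05), with -1.25 in the male libraries and -1.57 in the female pair. Ifi27l2a was at 1479, 779 and 1835 reads in TF and at 479 and 347 in TFD (log2 fold change -1.94 ± 0.46, SE, edgeR adjusted p = 0.22, DESeq2 adjusted p = 0.0484). Rtp4, an interferon-induced chaperone of opioid and taste receptors, was at 177, 89 and 215 reads in TF and at 60 and 57 in TFD (log2 fold change -1.64 ± 0.39, SE, edgeR adjusted p = 0.22, DESeq2 adjusted p = 0.0122).

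Among the regulators of the response, Irf7, which amplifies interferon production, was at 576, 437 and 749 reads in TF and at 372 and 302 in TFD (log2 fold change -1.0013 ± 0.24, SE, edgeR adjusted p = 0.22, DESeq2 adjusted p = 0.0132). Irf9, a DNA-binding factor of the interferon response, was at 1118, 949 and 1067 reads in TF and at 968 and 760 in TFD, non-overlapping after scaling (log2 fold change -0.46 ± 0.12, SE, DESeq2 adjusted p = 0.0455). Mx1, whose promoter drives the Cre of TFD mice, was at 608, 468 and 653 reads in TF and at 445 and 425 in TFD (log2 fold change -0.58 ± 0.23, SE, DESeq2 adjusted p = 0.42). Members near level were Ly6e (0.00 ± 0.18, SE) and the interferon-induced transmembrane genes Ifitm1 (0.13 ± 0.34), Ifitm2 (-0.14 ± 0.26) and Ifitm3 (-0.14 ± 0.19).

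The 4 members with the smallest p-values among those whose RefSeq promoter holds GAAA, any 2 bases and GAAA again are shown, since these letters match the core of the interferon-stimulated response element. Each line gives 100 of the 250 bases before the start (GRCm38.p6, 5′ to 3′ along the gene), with such a match on either strand in capitals. They lie at chr5:120777660-120777759 and chr8:71537567-71537666 (both minus strand), at chr5:120907526-120907625 (minus) and at chr19:34583337-34583436 (plus).
Oas3: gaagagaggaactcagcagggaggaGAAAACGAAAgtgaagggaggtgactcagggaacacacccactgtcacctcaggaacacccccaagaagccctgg
Bst2: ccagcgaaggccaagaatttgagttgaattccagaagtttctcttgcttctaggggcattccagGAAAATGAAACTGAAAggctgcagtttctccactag
Oas1a: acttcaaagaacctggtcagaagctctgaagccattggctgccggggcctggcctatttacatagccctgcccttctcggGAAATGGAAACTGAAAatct
Ifit3: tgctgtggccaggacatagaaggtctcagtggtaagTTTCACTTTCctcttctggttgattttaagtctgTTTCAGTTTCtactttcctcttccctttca
In Bst2 and Oas1a overlapping or adjoining matches form a longer run of capitals. The letters were found within 250 bases before the start in 12 of 28 members with a promoter in the table (42.9%) and in 3.45% of 9711 tested genes. Members with a match had a median log2 fold change of -1.29 and those without it -0.55. CCAAT split the same 28 members in much the same way, at -1.33 for the 11 with it and -0.65 for those without. Over all tested genes with a promoter, the medians were -0.06 with the GAAA letters and 0.00 without. Whether the letters bear on the fall was not tested. Bst2, which tethers enveloped virions to the cell, was at 485, 384 and 768 reads in TF and at 251 and 253 in TFD (log2 fold change -1.30 ± 0.31, SE, DESeq2 adjusted p = 0.00802). Oas1a, another oligoadenylate synthetase, was at 253, 141 and 366 reads in TF and at 96 and 103 in TFD (-1.53 ± 0.38, SE, DESeq2 adjusted p = 0.0123). Ifit3, which binds within the antiviral IFIT complex, was at 160, 83 and 321 reads in TF and at 62 and 67 in TFD (-1.74 ± 0.56, SE, DESeq2 adjusted p = 0.075).

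MHC class I and immunoproteasome genes, which present peptides from inside the cell to CD8+ T cells, were lower by less. All 18 tested had a negative log2 fold change, 9 had an unadjusted p under 0.05 (50% against 5.7% of all genes), 12 did not overlap with TFD lower (66.7% against 12%), and DESeq2 called 2 lower (11.1% against 0.895%). No member was called by the edgeR test (smallest edgeR adjusted p = 0.24). The median was -0.30, -0.19 with the length offset and -0.21 without TF3, where 4 members had an unadjusted p under 0.05 (background 4.34%), and without TFD2 2 did (3.26%). The list mean was 6.88, 6.75 and 6.95 log2 CPM in TF and 6.61 and 6.50 in TFD, with WT between 6.07 and 6.29. B2m, the shared light chain, was at 12916, 11454 and 11547 reads in TF and at 12710 and 5866 in TFD (log2 fold change -0.62 ± 0.17, SE, edgeR adjusted p = 0.27, DESeq2 adjusted p = 0.0214). Psme2, an activator subunit of the proteasome, had -0.52 ± 0.13 (SE, DESeq2 adjusted p = 0.0264), and Tap1, a subunit of the peptide transporter, -0.45 ± 0.12 (SE, DESeq2 adjusted p = 0.0574). Of 12 MHC class II genes, all had a negative log2 fold change, 2 had an unadjusted p under 0.05 (16.7% against 5.7%), 1 did not overlap (8.33% against 12%), and the median of -0.51 was -0.14 without TF3. Of 32 genes for Toll-like receptors, the inflammasome and inflammatory cytokines, 4 were lower (12.5% against 5.7%) and 0 higher at an unadjusted p of 0.05, 3 did not overlap with TFD lower (9.38% against 12%), and the median was -0.16. Casp1, the inflammasome protease, had -0.38 ± 0.15 (SE, edgeR adjusted p = 0.50) and Cxcl2, a neutrophil chemokine, -0.61 ± 0.22 (SE, edgeR adjusted p = 0.44).

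**Figure D4:**
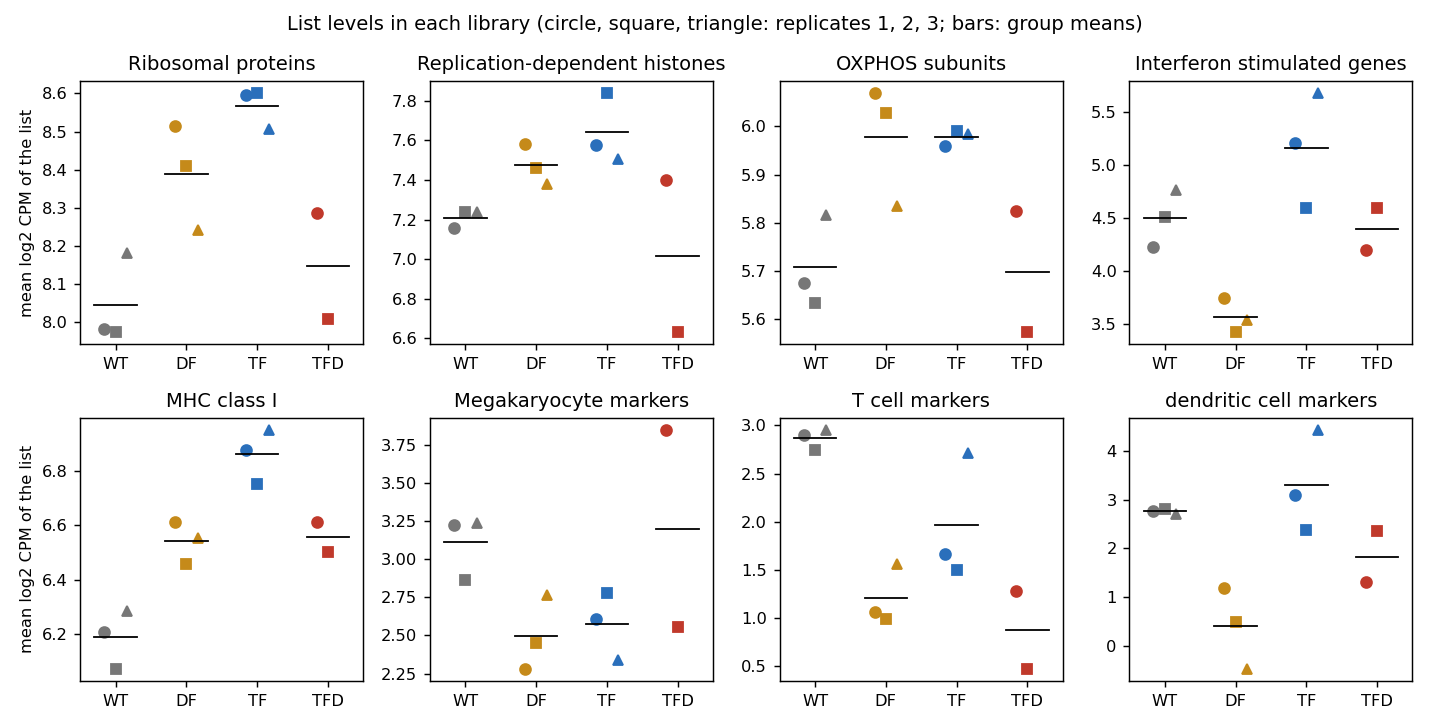
Mean log2 CPM of 8 lists (y axis) in each library of WT, DF, TF and TFD (x axis); circles, squares and triangles are replicates 1, 2 and 3 and bars are group means. Both TFD libraries lie below every TF library for ribosomal proteins, histones, OXPHOS and MHC class I, while the megakaryocyte difference is carried by TFD1 at 3.85.

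Markers of cell types moved with the same libraries. In bulk BM, fewer cells of a type and less RNA per cell cannot be told apart. Of 13 dendritic cell markers, all had a negative log2 fold change, 8 had an unadjusted p under 0.05 on the lower side (61.5% against 5.7% of all genes), and the median was -1.08. The groups did not overlap for 2 of them (15.4% against 12%), DESeq2 called 0, and the list means of TF2 and TFD2 were nearly equal, at 2.38 and 2.35 log2 CPM, with 3.09 in TF1, 4.43 in TF3 and 1.31 in TFD1. Their summed level was 357, 231 and 653 CPM in TF and 141 and 282 in TFD, with WT between 249 and 268. Siglech, a receptor of plasmacytoid dendritic cells, the main makers of type I interferon, was at 195, 146 and 693 reads in TF and at 8 and 59 in TFD; every TFD library was below every TF library (log2 fold change -3.50 ± 0.87, SE, edgeR adjusted p = 0.25, DESeq2 adjusted p = 0.30). Cox6a2, another marker of plasmacytoid cells, was at 7, 4 and 22 reads in TF and at 1 and 0 in TFD, too few for more than a count. Clec9a, a receptor of cross-presenting dendritic cells, was at 589, 283 and 747 reads in TF and 224 and 356 in TFD, and Xcr1, their chemokine receptor, was at 17, 19 and 39 in TF and 39 and 20 in TFD. Without TF3 the list median was -0.56, without TFD1 it was -0.59, and 2 members had an unadjusted p under 0.05 in either case (backgrounds 4.34% and 7.89%). Without TFD2 it was -1.74 and 9 members did (3.26%). The part of these cells in the interferon result was not tested.

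T cell markers had a negative log2 fold change in 17 of 17, with a median of -1.14, 11 at an unadjusted p under 0.05 (64.7% against 5.7% of all genes), 10 without overlap (58.8% against 12%) and 1 called by DESeq2 (5.88% against 0.895%). Their summed level was 65.5, 58.4 and 136 CPM in TF and 52.1 and 35.4 in TFD, against 131 to 152 in WT, and no marker was at 0 in TFD. Themis, which sets signalling of the T cell receptor during selection, was at 45, 28 and 43 reads in TF and 22 and 4 in TFD (log2 fold change -1.82 ± 0.46, SE, edgeR adjusted p = 0.25, DESeq2 adjusted p = 0.0214). The median was -0.46 without TF3, with 4 members at an unadjusted p under 0.05 (background 4.34%), and -0.85 without TFD2, with 2 (3.26%). It was -0.30 in the male libraries and -2.39 in the female pair. Of 13 NK and cytotoxic markers, 8 had a negative and 5 a positive log2 fold change, 4 were lower and 1 higher at an unadjusted p of 0.05 (5.7% and 3.07% of all genes), and the median of -0.43 was -0.12 without TF3. For 5 the groups did not overlap with TFD lower (38.5% against 12%), and DESeq2 called 2 lower (15.4% against 0.895%). Klrk1, the activating receptor NKG2D, was at 322, 210 and 404 reads in TF and at 166 and 103 in TFD (log2 fold change -1.44 ± 0.29, SE, edgeR adjusted p = 0.19, DESeq2 adjusted p = 0.00116). Klrd1, the CD94 chain of inhibitory and activating receptors, was at 208, 99 and 383 reads in TF and at 65 and 61 in TFD (-2.07 ± 0.47, SE, edgeR adjusted p = 0.19, DESeq2 adjusted p = 0.00176). Gzma, a granzyme of killer cells, was the 1 on the higher side, with 2, 4 and 2 reads in TF and 11 and 7 in TFD.

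Erythroid, B cell, plasma cell and macrophage markers were also lower in the fit, but the differences leaned on TF3. Medians were -0.78 over 22 erythroid markers, -1.25 over 22 B cell markers, -0.72 over 8 plasma cell markers and -0.49 over 15 macrophage markers; without TF3 they were -0.07, 0.07, -0.25 and -0.07. Car1, the carbonic anhydrase of red cell precursors, was at 493, 727 and 1831 reads in TF and at 627 and 221 in TFD. B cell markers summed to 69.9, 67.9 and 275 CPM in TF and to 55.5 and 66.4 in TFD, against 1137 to 1388 in WT.

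Markers of granulocyte and monocyte cells had smaller medians. Primary granule markers of early granulocytes had a median of 0.21 over 10 genes, with 2 higher at an unadjusted p of 0.05 (20% against 3.07% of all genes): Mpo, myeloperoxidase, at 26247, 32642 and 16432 reads in TF and 59194 and 27070 in TFD (log2 fold change 0.54 ± 0.24, SE, edgeR adjusted p = 0.54), and Fcnb, ficolin B, at 1174, 1478 and 117 in TF and 3321 and 1735 in TFD (1.26 ± 0.57, SE, edgeR adjusted p = 0.56). Without TFD1 the list median was -0.11. Late granule markers of maturing neutrophils had a median of -0.04 over 19 genes, but the TFD libraries lay on opposite sides of TF. The list mean was 9.40, 9.56 and 9.14 log2 CPM in TF, 9.67 in TFD1 and 8.91 in TFD2, the lowest of the 11 libraries. The median was -0.42 without TFD1, with 6 members lower at an unadjusted p of 0.05 (background 7.89%), and 0.33 without TFD2, with 3 higher (2.5%). Monocyte markers had a median of -0.16 over 12 genes. The stem and progenitor list had a median of 0.02 over 21 genes, with 1 higher and 2 lower at an unadjusted p of 0.05 (4.76% and 9.52%, against 3.07% and 5.7% of all genes). Gata2, a transcription factor of stem and early myeloid and megakaryocytic cells, was at 76, 86 and 57 reads in TF and at 200 and 100 in TFD; both TFD libraries were higher (log2 fold change 0.81 ± 0.22, SE, edgeR adjusted p = 0.27, DESeq2 adjusted p = 0.0893). On the lower side, Cd48, a surface protein that separates progenitors from stem cells, was at 3779, 3067 and 2830 reads in TF and at 2982 and 2440 in TFD, non-overlapping after scaling (-0.43 ± 0.13, SE, edgeR adjusted p = 0.34). Ly6a, the stem cell antigen Sca-1, was at 72, 50 and 251 reads in TF and at 75 and 34 in TFD, where the groups overlapped (-1.47 ± 0.57, SE, edgeR adjusted p = 0.50), and it was -0.34 without TF3.

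Megakaryocyte and platelet markers were higher in TFD as a list, through TFD1. Of 19, 17 had a positive log2 fold change and 8 had an unadjusted p under 0.05 on the higher side (42.1% against 3.07% of all genes), 3 did not overlap (15.8% against 10.3%), and the median was 0.996. Their summed level differed less, at 904.7, 769.9 and 993.5 CPM in TF and 1025 and 761.5 in TFD, with 1901, 1062 and 1020 in WT. The list mean was 2.61, 2.78 and 2.34 log2 CPM in TF, 3.85 in TFD1 and 2.55 in TFD2, and without TFD1 the median was -0.07 and 0 members had an unadjusted p under 0.05 (background 6.54%). Without TFD2 it was 1.52 and 14 did (2.5%), and without TF3 5 did (2.96%). Vwf, von Willebrand factor, was at 178, 180 and 151 reads in TF, 650 in TFD1 and 205 in TFD2, and was higher in both (log2 fold change 1.05 ± 0.25, SE, edgeR adjusted p = 0.22, DESeq2 adjusted p = 0.0214). Pf4, platelet factor 4, was at 96, 141 and 71 reads in TF, 520 in TFD1 and 87 in TFD2, where only TFD1 stood out.

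**Figure D5:**
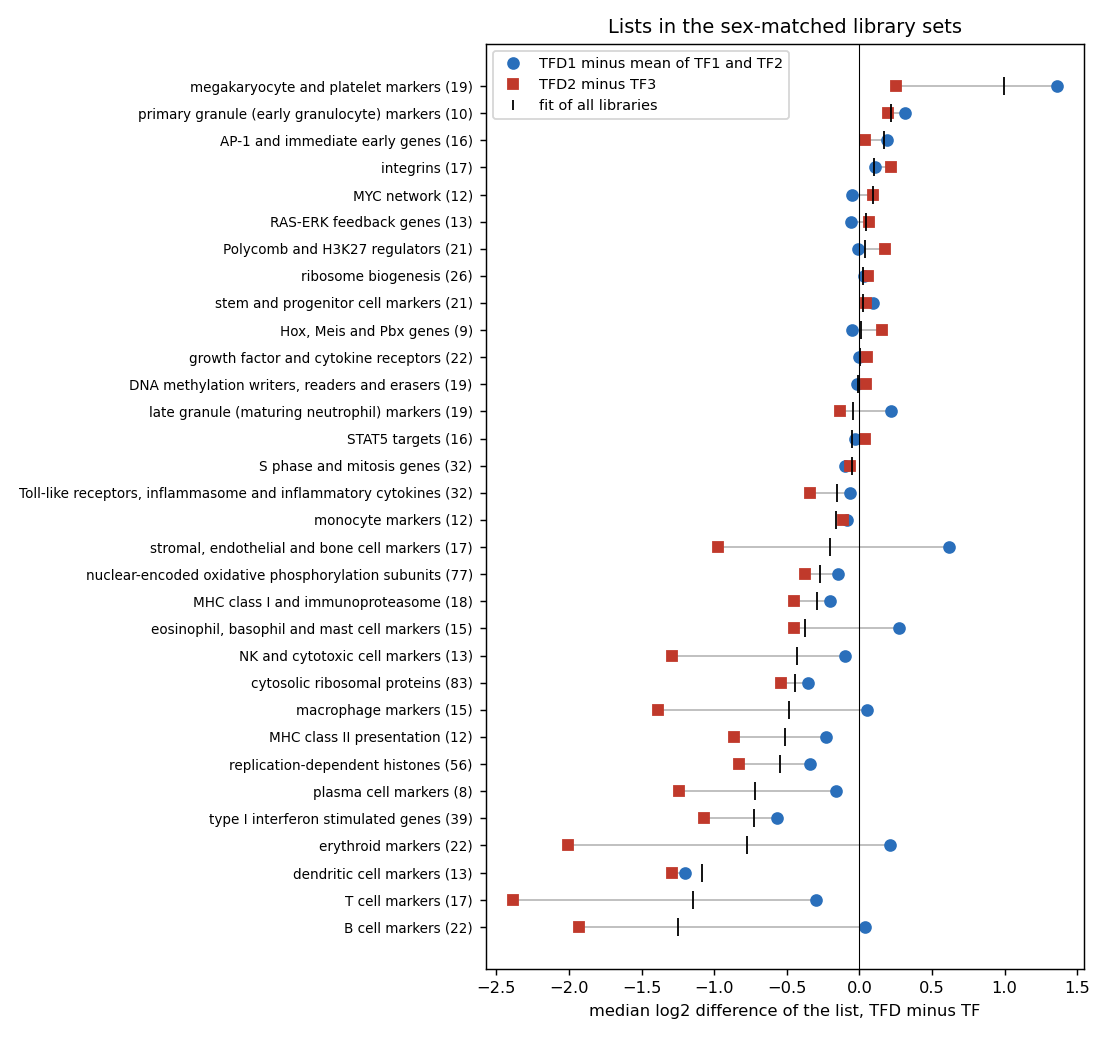
Median log2 difference, TFD minus TF (x axis), of 32 lists (y axis, with the number of genes tested) in the male libraries (TFD1 minus the mean of TF1 and TF2, blue circles), in the female pair (TFD2 minus TF3, red squares) and in the fit of all libraries (black ticks). Interferon-stimulated genes, ribosomal proteins, histones and dendritic cell markers lie below 0 in both sets, while B cell and erythroid markers differ in sign between them.

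Among genes with a mean of at least 1 log2 CPM, an unadjusted p under 0.05 and no overlap between the groups, those with the largest positive log2 fold change were Nov, Cwc22, Rusc2, Enah, Grb14, Fcnb, Ncs1, Fzd4, Stap2 and Trpc6. Nov, a secreted matricellular protein also known as CCN3, was at 0 reads in every WT library, 55, 45 and 15 in TF and 143 and 413 in TFD (log2 fold change 2.83 ± 0.56, SE, edgeR adjusted p = 0.19, DESeq2 adjusted p = 0.0399); without TFD2 it was 1.497. Enah, an actin regulator of the Ena/VASP family, was at 108, 80 and 57 reads in TF and 225 and 232 in TFD (1.34 ± 0.22, SE, edgeR adjusted p = 0.0728, DESeq2 adjusted p = 0.000527), while DF held 3.90 log2 CPM against 4.09 in TFD, 2.74 in TF and 1.45 in WT. Cwc22, a splicing factor, was at 8738 reads in TFD1 and at 347 to 813 in the other 10 libraries, 564 of them in TFD2, so its log2 fold change of 2.72 ± 0.58 (SE, edgeR adjusted p = 0.19) was 0.15 without TFD1. Fzd4, a WNT receptor, was at 53, 29 and 19 reads in TF and 103 and 67 in TFD (1.14 ± 0.32, SE, edgeR adjusted p = 0.27), and Grb14, an adaptor that inhibits the insulin receptor, was at 20, 29 and 13 in TF and 84 and 36 in TFD (1.30 ± 0.37, SE, edgeR adjusted p = 0.28). The other 4, Rusc2, Ncs1, Stap2 and Trpc6, had log2 fold changes between 1.10 and 1.45 (edgeR adjusted p 0.37 to 0.54).

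Those with the largest negative log2 fold change were Siglech, Cd300c, Ptprf, Hpgd, Hspa1b, Klrd1, Iigp1, Phf11d, Pydc4 and Tmem45a2. Hpgd, the enzyme that inactivates prostaglandins, was at 600, 267 and 336 reads in TF and 151 and 56 in TFD; both TFD libraries were below TF (-2.20 ± 0.39, SE, edgeR adjusted p = 0.11, DESeq2 adjusted p = 1.57e-05), with TFD at 2.78 log2 CPM close to WT at 3.14. Cd300c, an activating receptor of myeloid cells, was at 50, 27 and 96 reads in TF and 7 and 11 in TFD (-2.85 ± 0.62, SE, edgeR adjusted p = 0.19, DESeq2 adjusted p = 0.00351). Hspa1b, an inducible HSP70 chaperone with a near-identical copy, Hspa1a, was at 77, 82 and 152 reads in TF and 27 and 29 in TFD (-2.08 ± 0.49, SE, edgeR adjusted p = 0.21, DESeq2 adjusted p = 0.00176). Iigp1, an interferon-inducible GTPase, was at 51, 16 and 109 reads in TF and 19 and 14 in TFD (-2.06 ± 0.64, SE, edgeR adjusted p = 0.35).

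Regulators of DNA methylation, the genes closest to the alleles under study, had a median of -0.01. Of 19 writers, readers and erasers tested, 0 were higher and 1 was lower at an unadjusted p of 0.05 (5.26% against 5.7% of all genes), and 3 did not overlap with TFD lower (15.8% against 12%). That 1 was Mbd4, a glycosylase that repairs mismatches at methylated CpG sites, at 414, 431 and 427 reads in TF and 415 and 363 in TFD (log2 fold change -0.30 ± 0.13, SE, edgeR adjusted p = 0.56). The methylcytosine oxidase Tet1 was at 344, 351 and 241 reads in TF and 299 and 254 in TFD (-0.34 ± 0.17, SE, edgeR adjusted p = 0.61). Of 21 Polycomb genes, 0 were lower and 1 was higher at that p (4.76% against 3.07% of all genes), Phf19, which recruits PRC2 to chromatin (0.36 ± 0.15, SE, edgeR adjusted p = 0.53). None of 9 Hox, Meis and Pbx genes had an unadjusted p under 0.05, and the median was 0.01; Meis1, a HOX cofactor of leukaemic self-renewal, was at 192, 221 and 98 reads in TF and 290 and 200 in TFD (0.34 ± 0.22, SE, edgeR adjusted p = 0.71).

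Lists of receptors, integrins and genes downstream of FLT3 had medians between -0.05 and 0.17. Of 16 STAT5 targets, 1 was higher and 1 lower at an unadjusted p of 0.05 (6.25% each, against 3.07% and 5.7% of all genes), with a median of -0.05. Cish, a feedback inhibitor induced by STAT5, was at 81, 78 and 65 reads in TF and 139 and 135 in TFD; both TFD libraries were higher (0.71 ± 0.23, SE, edgeR adjusted p = 0.37). Ccnd1, cyclin D1, was at 250, 185 and 521 reads in TF and 87 and 136 in TFD (-1.67 ± 0.51, SE, edgeR adjusted p = 0.34). Of 13 RAS-ERK feedback genes none had an unadjusted p under 0.05, and the same held for 22 growth factor and cytokine receptors, with a median of 0.00. Of 12 MYC network genes, 2 were on the higher side at an unadjusted p of 0.05 (16.7% against 3.07% of all genes). Myc itself was at 537, 596 and 469 reads in TF and 698 and 852 in TFD, where the groups overlapped after scaling. Its log2 fold change of 0.41 ± 0.18 (SE, edgeR adjusted p = 0.56) became -0.032 without TFD2 and -0.073 in the libraries with under 10000 Xist reads. Mxd1, a MYC antagonist, had 0.35 ± 0.15 (SE, edgeR adjusted p = 0.52). Of 16 AP-1 and immediate early genes, 13 had a positive log2 fold change, with a median of 0.17, and 3 did not overlap with TFD higher (18.8% against 10.3% of all genes). The median was -0.0044 without TFD1 and 0.02 without TF2. At an unadjusted p of 0.05, 1 was higher (6.25% against 3.07%), Fosb (0.37 ± 0.16, SE, edgeR adjusted p = 0.54), and of 17 integrins, with a median of 0.10, 1 was higher (5.88%), Itga2b of platelets (0.98 ± 0.35, SE, edgeR adjusted p = 0.43), and 1 lower (5.88% against 5.7%), Itgax of dendritic cells (-0.82 ± 0.36, SE, edgeR adjusted p = 0.55). DESeq2 called 0 members of these lists and of the DNA methylation, Polycomb and Hox lists.

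Genes around the altered loci did not stand apart at Dnmt3a. Of 34 other tested genes that start within 10 Mb of Dnmt3a on chromosome 12, 3 had an unadjusted p under 0.05 (8.82%, against 8.77% of all genes) and 0 were called. They were Rhob, a small GTPase, at 2929, 3203 and 2269 reads in TF and 6245 and 2872 in TFD (log2 fold change 0.46 ± 0.18, SE, edgeR adjusted p = 0.51), Ptrhd1, a peptidyl-tRNA hydrolase family gene (-0.42 ± 0.16, SE, edgeR adjusted p = 0.49), and Sf3b6, a splicing factor subunit (-0.30 ± 0.14, SE, edgeR adjusted p = 0.57). For Rhob, TFD2 lay within the TF range after scaling, and only TFD1 stood above it. Around Tet2 and Flt3, whose alleles both groups carry, 10.5% of 57 and 8.27% of 133 genes had an unadjusted p under 0.05.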

How the data were processed

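The authors aligned reads to mm10 with STAR, assigned uniquely mapped reads to refGene genes with featureCounts, kept genes above a CPM of 0.5 in more than 3 samples and deposited raw counts per gene and log2 CPM for 11 libraries; strand settings and tool versions are not given in the sources used here. The deposited log2 CPM was recomputed from the counts to within 5e-09 (TMM, prior count 0.25). Exon lengths and positions came from the same table. The filter was repeated and removed 24 of 12199 genes.

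TFD was compared with TF in edgeR 4.0.16 (R 4.3.3) by the quasi-likelihood F-test, with all 4 genotypes in 1 fit, TMM scaling and Benjamini-Hochberg adjustment over 12175 genes at 0.05. SE is the log2 fold change divided by the root of F. Log2 CPM levels used a prior count of 0.25. DESeq2 1.42.0, limma 3.58.1 (voom), the likelihood ratio test, other scalings and filters, a replicate block, a sex term, a length offset (loess, span 0.3) and leaving out each library were alternatives. The scripts were tested on simulated data.

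Members and lists were chosen with earlier results of these data known. Named genes were Tet2, Dnmt3a and Flt3; each called gene; the 10 largest and 10 smallest log2 fold changes among genes with a mean of at least 1 log2 CPM, an unadjusted p under 0.05 and no overlap between TF and TFD; up to 4 members per list with the smallest p; and up to 5 genes near Dnmt3a. Other genes named were chosen after their values were seen. Some genes that the rule names are not reported here. Promoters came from RefSeq (GRCm38.p6): 12137 of 12175 genes matched an ID and 9711 had a promoter. RefSeq positions may differ from those of the deposited table. Total counts were 8274153 to 15900904 per library; intervals and floors cover counting error only.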

Additional observations from a re-analysis of the deposited data

How the results depend on the processing

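Against the 2 genes called by the edgeR test (1 higher, 1 lower), DESeq2 called 22 higher and 109 lower, DESeq2 on the TF and TFD libraries alone 10 and 64, the likelihood ratio test 25 and 60, the sex term 4 and 18, and the libraries without Xist reads, a setting chosen after seeing the data, 9 and 6; edgeR on TF and TFD alone called 0 and 0, with 728 genes at an unadjusted p under 0.05. As each of the 11 libraries was left out, calls ranged from 1 to 16 higher and from 1 to 60 lower, with 25 lower without TF2 and 16 higher and 60 lower without TFD1. A lone TFD library was assumed to vary like the other groups. Other scalings, limma voom, the length offset, the replicate block and leaving out the filter gave 1 and 1. The filter of edgeR kept all 12199 genes, so it was the same setting as no filter, and both differ from the main fit by 24 genes. TF and TFD share the numbers 1 and 2, and the deviations of same-numbered libraries had correlations of 0.02 and -0.40 over 11183 genes. With 2 TFD libraries their deviations mirror each other, so these values cannot show whether the numbers pair the libraries. With the length offset the median log2 fold change was -0.19 for ribosomal proteins, -0.061 for OXPHOS and -0.19 for MHC class I. In libraries with under 10000 Xist reads it was -0.14 for OXPHOS and -0.30 for T cell markers. With 1 library left out, medians ranged from -0.58 to -0.31 (ribosomal proteins), -1.01 to -0.25 (histones), -0.39 to -0.14 (OXPHOS), -0.067 to 1.52 (megakaryocyte) and -1.56 to -0.46 (T cell). Of named genes, 21 values changed sign, none of them called in any of these settings. In libraries with under 10000 Xist reads they were C1qb 0.12, C1qc 0.040, Flt3 -0.032, Myc -0.073, Pcgf5 -0.0071, Sdc1 0.073, Slamf1 0.23, Spred1 -0.053 and Tet2 -0.036. With the length offset Tet2 was at -0.024. With 1 library left out they were Col3a1 (-0.077 to 1.63), Csf3r (-0.080 to 0.73), Flt3 (-0.11 to 1.03), Gm1821 (-0.69 to 4.84), Hoxb3 (-0.72 to 0.052), Il7r (-1.22 to 0.18), Myc (-0.032 to 0.76), Pf4 (-0.15 to 1.93), Spred1 (-0.13 to 0.50) and Tet2 (-0.13 to 0.22). The other 3679 values for named genes kept direction and side of the threshold, 162 passed it in addition, and 2 (Skint3 and Hist3h2bb-ps) lost it with TF and TFD fitted alone. The cause of these shifts was not tested. With 2 TFD libraries, genes with few reads, such as Cox6a2, gave no more than counts.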

Other observations

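Some genes of the interferon response lie outside the lists. Ifi204, a sensor of the HIN-200 family chosen after its values were seen, lies at chr1:173747294-173766919 (mm10) and was at 1219, 886 and 1184 reads in TF and at 775 and 490 in TFD, with 317 to 476 in WT (log2 fold change -1.01 ± 0.20, SE, edgeR adjusted p = 0.16, DESeq2 adjusted p = 0.00116). Mndal, of the same family and also chosen after its values were seen, was at 1660, 1160 and 1877 reads in TF and at 1395 and 690 in TFD (-0.84 ± 0.22, SE, DESeq2 adjusted p = 0.0229), and Pydc4, among the 10 largest negative log2 fold changes, was at 77, 39 and 117 in TF and 31 and 15 in TFD (-2.00 ± 0.46, SE, DESeq2 adjusted p = 0.0105). In each of the 3 genes both TFD libraries were below every TF library after scaling. None of the 3 was called by the edgeR test.

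Mmel1, Lamb1 and Gm1821 were chosen after their values were seen. Mmel1, a membrane metalloendopeptidase, was at 5, 7 and 6 reads in TF and at 41 and 31 in TFD, with 0 to 4 in WT and DF (log2 fold change 2.37 ± 0.45, SE, edgeR adjusted p = 0.16). Lamb1, a laminin chain, was at 7, 4 and 7 reads in TF, 85 in TFD1 and 15 in TFD2. Gm1821 was at 793 reads in TFD1, 12 in TFD2 and 4 to 31 elsewhere, the same library that stood out for Cwc22.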
